A study of Mus musculus with 18 samples.

Results

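The 9 genes described here produce, transport, sense or remove adenosine. They are the enzymes Adk, Ada, Nt5e, Entpd1 and Entpd2, the receptors Adora1, Adora2a and Adora2b, and the transporter Slc29a1. They were chosen by symbol, 9 of the 55291 gene symbols measured, and all 9 had a count in at least some libraries. The study asked how the transcripts of hippocampal astrocytes change after kainic acid (KA), a glutamate receptor agonist that is used to model mesial temporal lobe epilepsy.

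All mice were wild-type C57BL/6J males, 6 weeks of age at the start, and all received AAV_DJ-GfaABC1D-EGFP-Rpl10a in the right CA3 region. This virus carries a GFP-tagged ribosomal protein under the GfaABC1D promoter, which is active in astrocytes. Ribosomes with the tag were pulled down with an anti-GFP antibody (IP), while an aliquot of the same homogenate (input) held RNA of the entire right hippocampus. In the KA group, KA was injected into the right dentate gyrus 2 weeks after the virus, and RNA was collected 14 days later. In the PBS group, PBS followed the virus. AAV control mice had no second injection, and their RNA was taken 2 weeks after the virus, so that KA and AAV control mice also differed in surgery and in time since the virus. Each group had 3 samples, each a pool of 3 to 4 mice, giving 18 libraries. P-values therefore measure the spread between pools.

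Library totals ranged from 7991681 to 16032180 counts. Run 1 held samples #1 and #2 of KA and of AAV control, run 2 their samples #3, and run 3 all PBS samples, so for PBS the run and the group cannot be told apart. The labelled cell type was checked with 11 astrocyte markers, all of which had counts in every group. Their summed level was 6577 to 12133 FPKM (fragments per kilobase, scaled to library size) in IP and 563 to 1481 in input. The 10 microglial markers summed to 15.3 to 64.7 FPKM in IP and the 9 neuronal markers to 148 to 396. The oligodendrocyte markers, at 1279 to 2439 FPKM in KA IP, were higher there than in KA input, at 720 to 925.

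Adenosine is a modulator of excitability that dampens synaptic transmission. Outside the cell it is formed from released ATP by ectonucleotidases, it crosses the membrane through equilibrative nucleoside transporters, and inside the cell adenosine kinase turns it into AMP. In the adult brain this kinase is known chiefly from astrocytes, and its level is widely studied in epilepsy. Adora1 couples to inhibitory G proteins, whereas Adora2a and Adora2b couple to stimulatory ones.

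Of the 9 genes, Adk, Entpd2 and Adora2b shared high levels in the astrocyte pulldown relative to input in every group, and Adk has 2 annotated start sites that the counts per gene symbol cannot separate. The 250 bases before each of these starts are therefore shown (RefSeq, GRCm38.p6, 5′ to 3′, all on the plus strand). Capitals mark matches, on either strand, to GGGCGG (the GC box), CCAAT or TATAAA. In the first Adk window a CCAAT match read from the other strand overlaps a GGGCGG match. The windows are chr14:21052324-21052573 and chr14:21075902-21076151 for Adk, chr2:25395624-25395873 for Entpd2 and chr11:62248734-62248983 for Adora2b.
Adk, first start: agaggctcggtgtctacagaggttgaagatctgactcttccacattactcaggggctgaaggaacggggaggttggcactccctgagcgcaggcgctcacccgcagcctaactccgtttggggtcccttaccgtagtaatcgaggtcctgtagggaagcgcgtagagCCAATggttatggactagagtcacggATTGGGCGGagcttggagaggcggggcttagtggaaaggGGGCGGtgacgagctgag
Adk, second start: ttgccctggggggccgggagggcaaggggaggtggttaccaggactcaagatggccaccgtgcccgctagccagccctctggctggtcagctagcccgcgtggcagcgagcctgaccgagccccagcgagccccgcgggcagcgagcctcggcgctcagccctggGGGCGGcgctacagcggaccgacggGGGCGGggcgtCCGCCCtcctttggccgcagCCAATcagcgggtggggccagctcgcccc
Entpd2: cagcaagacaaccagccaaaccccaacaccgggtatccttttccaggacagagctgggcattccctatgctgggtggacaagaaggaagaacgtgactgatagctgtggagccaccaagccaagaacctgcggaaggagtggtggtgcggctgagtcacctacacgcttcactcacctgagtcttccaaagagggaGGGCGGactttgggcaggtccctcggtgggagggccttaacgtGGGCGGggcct
Adora2b: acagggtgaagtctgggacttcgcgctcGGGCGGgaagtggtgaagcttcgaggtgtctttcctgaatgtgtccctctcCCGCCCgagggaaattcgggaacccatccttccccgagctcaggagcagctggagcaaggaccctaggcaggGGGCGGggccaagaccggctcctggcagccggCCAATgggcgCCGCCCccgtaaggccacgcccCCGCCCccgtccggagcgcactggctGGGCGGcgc
The GGGCGG motif occurred 2 times before the first Adk start, 3 times before the second, 2 times before Entpd2 and 6 times before Adora2b. Of all 32851 windows of this length, 32.7% held GGGCGG, 33.8% held CCAAT and 12.4% held TATAAA. None of the 4 windows held TATAAA, and CCAAT was matched in both Adk windows and before Adora2b. These matches describe the letters and were not related to the values.

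Adk, adenosine kinase, lies on chromosome 14 from 21052574 to 21448569 on the plus strand of GRCm38 and was the most abundant of the 9 genes in IP. In KA IP its level was 28.9, 26.6 and 18.5 FPKM in samples #1, #2 and #3. In AAV control IP it was 28.8, 23.9 and 29.2 FPKM, and in PBS IP 22.4, 23.9 and 19.2 FPKM. The 3 IP groups overlapped, and KA #3 was the lowest of the 9 IP libraries. Adk did not pass the test in IP, with a log2 fold change of -0.11 ± 0.20 (SE, n = 3) against AAV control (95% interval -0.58 to 0.36, adjusted p = 0.746) and of 0.15 ± 0.22 against PBS (-0.33 to 0.63, adjusted p = 0.617). Here and below, a gene passed when its adjusted p in edgeR's quasi-likelihood test was under 0.05, among genes with FPKM above 1 in all libraries compared.

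In input, Adk was at 11.1, 9.29 and 7.49 FPKM in the KA samples. It was at 6.96, 6.26 and 7.58 FPKM in the AAV control samples and at 5.64, 6.82 and 6.72 FPKM in the PBS samples. All 3 KA samples were above all PBS samples, whereas KA #3 lay below AAV control #3. The log2 fold change in input was 0.52 ± 0.12 against PBS, which passed (adjusted p = 0.00823), and 0.41 ± 0.17 against AAV control, which did not (adjusted p = 0.245). Without AAV control input #3 the latter was 0.54 (adjusted p = 0.0261), and within run 1, with 2 samples a group, 0.63 (adjusted p = 9.55e-06). In these 2 fits 23.8% and 41.6% of all genes passed, beside 4.49% in the reported fit. The run 1 fit was chosen after seeing the data. The summed astrocyte markers in input moved with Adk, from 563 to 927 FPKM in AAV control and 807 to 956 in PBS to 1432 to 1481 in KA. The list did not move evenly. Mean Gfap was 376 FPKM in KA input, 34.6 in AAV control input and 42.9 in PBS input. Slc1a2 (220 in KA, 210 in PBS) and Aldoc (426 in KA, 435 in PBS) were close to PBS, and the remaining markers had higher means in KA. The part of these markers in the Adk values was not tested. In bulk input, a change in the number of cells of a type cannot be told apart from a change in RNA per cell.

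Ada, adenosine deaminase, converts adenosine to inosine and was measured near the detection limit (chromosome 2, 163726584 to 163750239, minus strand). Its counts were 25, 24 and 18 in KA IP, 4, 2 and 16 in AAV control IP and 7, 9 and 13 in PBS IP. The KA IP samples, at 1.12, 1.15 and 0.82 FPKM, were above every sample of the other IP groups, of which AAV control #3 was the highest at 0.62 FPKM. Ada was outside the FPKM filter. In the fit without that filter it was higher in KA IP by 1.73 ± 0.58 on the log2 scale against AAV control (adjusted p = 0.0275) and by 1.58 ± 0.53 against PBS (adjusted p = 0.0181), where the median of all genes in that fit lay at -0.56. A two-sided exact permutation test on log2(FPKM + 1) gave p = 0.1 for both, the smallest that 3 against 3 samples allow. In input, Ada was at 0.21 to 0.75 FPKM with overlapping groups. Without the filter 31675 genes entered the first comparison and 12.4% of them passed, and in the second comparison 18.8% of 37476 genes passed.

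**Figure D1:**
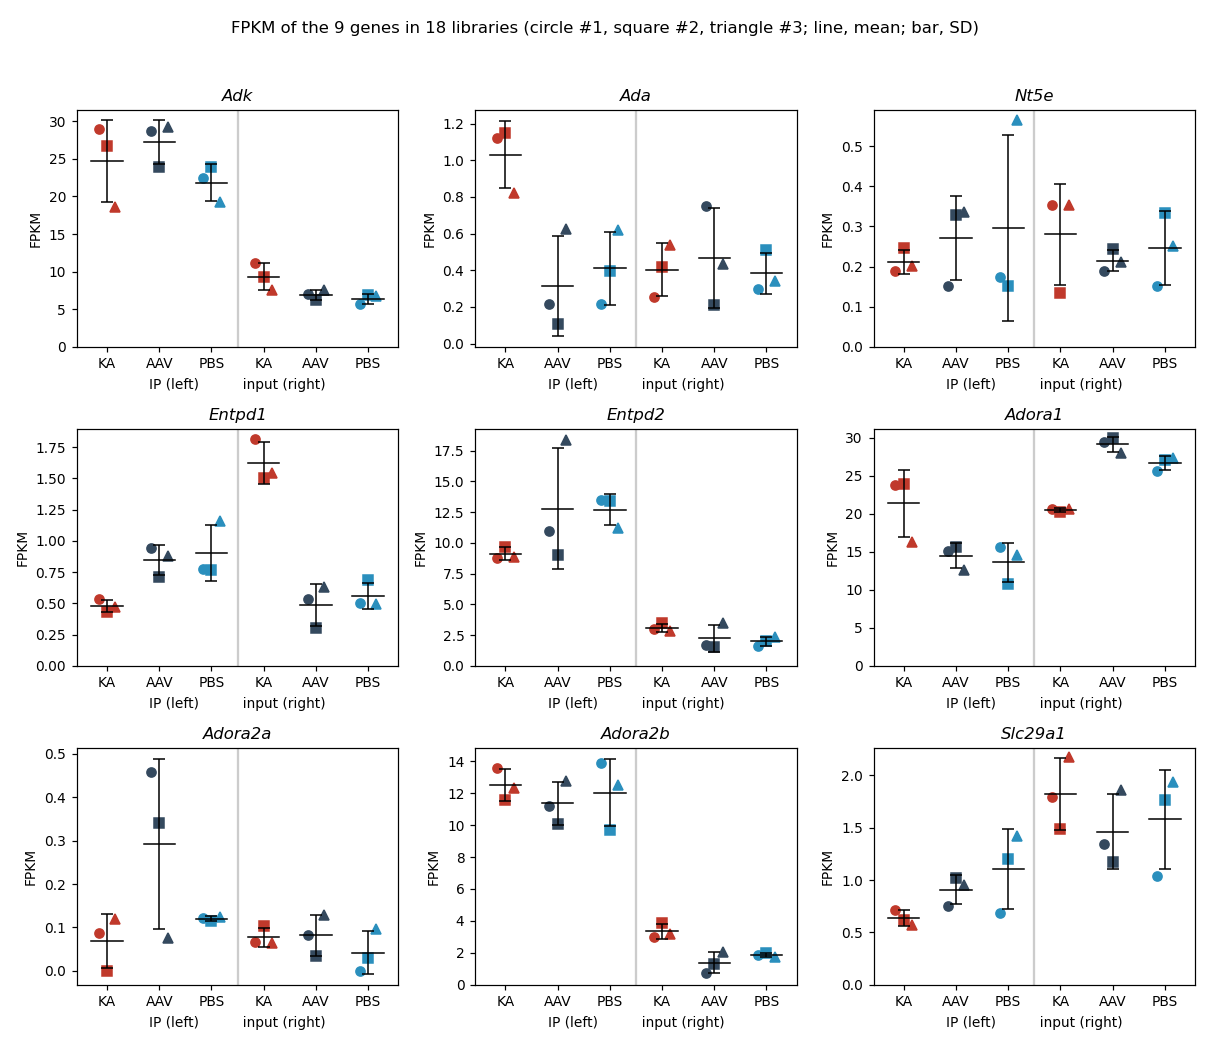
FPKM (y axis, linear, one scale per gene) of each of the 9 genes in the 18 libraries, by group (x axis, 3 IP groups left and 3 input groups right; AAV is AAV control), with the mean as a line and the SD as a bar. Adora1 in IP is highest in KA, Entpd1 in input is highest in KA, and Adk in IP overlaps between the groups.

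The ectonucleotidases Entpd1 and Entpd2 hydrolyse extracellular nucleotides, and Nt5e, ecto-5'-nucleotidase, forms adenosine from AMP. Entpd2 (chromosome 2, 25395874 to 25401321, plus strand) is known from astrocytes. Its IP levels were 8.78, 9.70 and 8.87 FPKM in KA, 10.9, 9.04 and 18.4 FPKM in AAV control and 13.5, 13.4 and 11.2 FPKM in PBS. KA was below all PBS samples and overlapped AAV control, whose sample #3 stood far above the other AAV control samples. Entpd2 did not pass in IP, with log2 fold changes of -0.46 ± 0.31 against AAV control (adjusted p = 0.335) and -0.49 ± 0.20 against PBS (adjusted p = 0.0717). Without AAV control #3 the former was -0.02, and without PBS #3 the latter was -0.63 and passed (adjusted p = 0.0244).

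In input, Entpd2 was at 3.00, 3.45 and 2.81 FPKM in KA, at 1.71, 1.53 and 3.47 FPKM in AAV control and at 1.59, 2.05 and 2.31 FPKM in PBS. The KA samples were above all PBS samples, and AAV control #3 was the highest of all. Entpd2 passed against PBS in input (log2 fold change 0.63 ± 0.20, adjusted p = 0.0405) and did not against AAV control (0.41 ± 0.36, adjusted p = 0.625). The call against PBS was lost without any one of KA #1, KA #2, PBS #1, PBS #2 or PBS #3, with fold changes of 0.54 to 0.69 and adjusted p of 0.0812 to 0.131. Against AAV control it was 0.99 without AAV control #3 (adjusted p = 0.018). At one end, an exon of Entpd2 overlaps the span of the gene Npdc1 on the same strand. The mean count of Npdc1 was 2466, so part of the Entpd2 counts may be uncertain. The exons of Npdc1 were not compared.

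Entpd1 (chromosome 19, 40612366 to 40741602, plus strand), which is known from microglia and vascular cells, was on opposite sides of the controls in input and in IP. In input it was at 1.82, 1.50 and 1.55 FPKM in KA, at 0.54, 0.30 and 0.63 in AAV control and at 0.50, 0.68 and 0.49 in PBS. In IP it was at 0.53, 0.43 and 0.47 FPKM in KA, at 0.95, 0.71 and 0.88 in AAV control and at 0.77, 0.77 and 1.16 in PBS. The KA samples were above all other input samples and below all other IP samples. Entpd1 was outside the FPKM filter in every comparison, because its IP and control levels were mostly below 1. Without the filter, its input change was 1.66 ± 0.30 against AAV control (adjusted p = 7.39e-06) and 1.49 ± 0.24 against PBS (adjusted p = 2.36e-08). In IP its change was -0.69 ± 0.39 (adjusted p = 0.303) and -0.67 ± 0.36 (adjusted p = 0.198), which did not pass. The median of all genes in those IP fits was -0.07 against AAV control and -0.56 against PBS. The exact permutation p of Entpd1 was 0.1 in all 4 comparisons of KA with a control.

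The microglial markers were higher in the same input libraries. Their summed level was 1454 to 2353 FPKM in KA input, 119 to 259 in AAV control input and 153 to 177 in PBS input, with all 10 markers detected, and the 5 macrophage markers went from 9.15 to 21.5 FPKM in AAV control to 217 to 312 in KA. In IP, where Entpd1 was lower in KA, the microglial sum was 31.4 to 64.7 FPKM in KA. It was 15.3 to 25.5 in AAV control IP and 19.0 to 30.4 in PBS IP. The 7 endothelial markers summed to 2.71 to 4.00 FPKM in KA IP, 4.10 to 7.88 in AAV control IP and 3.57 to 9.25 in PBS IP. In input they summed to 18.3 to 27.3 FPKM in KA, 17.5 to 20.5 in AAV control and 12.3 to 17.7 in PBS. The part of these cells in the Entpd1 values was not tested. Nt5e (chromosome 9, 88327197 to 88372092, plus strand) had 11 to 51 counts and 0.13 to 0.56 FPKM over the 18 libraries. Its groups overlapped in all comparisons, with PBS IP #3 the highest library.

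Adora1 (chromosome 1, 134199223 to 134235431, minus strand), the inhibitory adenosine receptor, was the receptor with the highest levels and the only one of the 9 genes to pass in IP in the filtered test. In IP it was at 23.8, 23.9 and 16.3 FPKM in KA. It was at 15.1, 15.6 and 12.6 FPKM in AAV control and at 15.6, 10.7 and 14.5 FPKM in PBS. All KA samples exceeded all control samples, although KA #3 was within 1 FPKM of the highest control. In input the order turned, with 20.6, 20.2 and 20.6 FPKM in KA, 29.4, 29.9 and 28.0 in AAV control and 25.6, 27.1 and 27.3 in PBS. Here all KA samples were below all control samples.

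In IP, Adora1 was higher in KA by 0.61 ± 0.16 on the log2 scale against AAV control (95% interval 0.23 to 0.99, adjusted p = 0.036) and by 0.65 ± 0.18 against PBS (0.24 to 1.05, adjusted p = 0.019). It was the 1 gene that passed of the 4 members tested in each of these comparisons, where 20.1% and 37.0% of all tested genes passed. Both comparisons share the KA samples. Against AAV control the call was lost without KA #1 (0.57, adjusted p = 0.128), KA #2 (0.55, adjusted p = 0.143), AAV control #1 (0.61, adjusted p = 0.111) or AAV control #2 (0.63, adjusted p = 0.101). Against PBS it was lost without KA #1 (0.61, adjusted p = 0.0723), KA #2 (0.59, adjusted p = 0.0811) or PBS #2 (0.57, adjusted p = 0.0608).

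In input, Adora1 fell by 0.39 on the log2 scale against PBS (SE 0.10, adjusted p = 0.0148), a call lost without KA #1 (-0.36, adjusted p = 0.0668), KA #2 (-0.35, adjusted p = 0.0654) or PBS #2 (-0.37, adjusted p = 0.0681). Against AAV control its change of -0.50 ± 0.13 did not pass (adjusted p = 0.0757), but it passed with the replicate number as a block (-0.50 ± 0.11, adjusted p = 0.0226), without AAV control #3 (-0.47, adjusted p = 0.0152) and in DESeq2 (adjusted p = 0.0079). The summed neuronal markers moved in the same directions. In IP they were at 288 to 396 FPKM in KA, 148 to 190 in AAV control and 162 to 276 in PBS. In input they were at 804 to 886 FPKM in KA, 1083 to 1328 in AAV control and 1185 to 1287 in PBS. Oligodendrocyte markers in IP, at 1279 to 2439 FPKM in KA, 247 to 1037 in AAV control and 277 to 550 in PBS, were also higher in KA. Within KA IP, sample #3 had the highest neuronal sum and the lowest Adora1. The dentate granule cell markers, at 24.2, 50.7 and 51.5 FPKM in KA IP #1, #2 and #3, were also highest in #3. The CA pyramidal cell markers, at 80.7, 79.4 and 58.0 FPKM, were lowest in #3, as were the oligodendrocyte markers, at 2439, 1687 and 1279 FPKM. The part of these cells in the Adora1 values was not tested.

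Adora2b (chromosome 11, 62248984 to 62266453, plus strand), a receptor of low adenosine affinity, was at 13.6, 11.6 and 12.3 FPKM in KA IP, 11.2, 10.1 and 12.8 in AAV control IP and 13.9, 9.73 and 12.5 in PBS IP. The IP groups overlapped, and the log2 fold changes were 0.18 ± 0.20 against AAV control (95% interval -0.27 to 0.64, adjusted p = 0.558) and 0.07 ± 0.18 against PBS (-0.34 to 0.47, adjusted p = 0.801). In input it was at 2.97, 3.87 and 3.19 FPKM in KA, 0.75, 1.31 and 2.07 in AAV control and 1.89, 2.01 and 1.76 in PBS. Every KA input sample was above every control input sample.

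Against PBS, Adora2b passed in input (0.81 ± 0.22, adjusted p = 0.0203). That call was lost without KA #2 (0.72, adjusted p = 0.0806), PBS #2 (0.86, adjusted p = 0.0606) or PBS #3 (0.71, adjusted p = 0.0862). Against AAV control in input it was outside the filter, since AAV control #1 was below 1 FPKM, and the unfiltered fit gave 1.17 ± 0.33 (adjusted p = 0.0116). The astrocyte marker sums given with Adk moved with it in input. Adora2a (chromosome 10, 75316877 to 75334784, plus strand), a receptor best known from the striatum, had 0 to 13 counts per library and none in KA IP #2 and PBS input #1, where a count of 0 allows an expected count of up to 3. AAV control IP #1 and #2, with 13 and 10 counts, were the highest. The groups overlapped in each comparison between KA and a control, and a difference was not detectable at this depth. Adora3, the remaining adenosine receptor and no member of the set, was also near its floor, with 40 counts in all over the 3 KA input libraries and 3 to 13 over the 3 libraries of each other group.

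Slc29a1 (chromosome 17, 45585200 to 45599606, minus strand), an equilibrative nucleoside transporter, was at 0.72, 0.62 and 0.57 FPKM in KA IP, 0.75, 1.02 and 0.95 in AAV control IP and 0.69, 1.20 and 1.43 in PBS IP. KA lay below all AAV control samples and overlapped PBS. In the unfiltered IP fits the median log2 fold change of all genes was -0.07 against AAV control and -0.56 against PBS. The Slc29a1 changes there did not pass (-0.38 ± 0.41, adjusted p = 0.606, and -0.57 ± 0.37, adjusted p = 0.324). In input it was at 1.80, 1.49 and 2.18 FPKM in KA, 1.34, 1.18 and 1.86 in AAV control and 1.04, 1.76 and 1.94 in PBS, with overlapping groups and changes of 0.31 ± 0.29 against AAV control (adjusted p = 0.659) and 0.21 ± 0.25 against PBS (adjusted p = 0.558).

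**Figure D2:**
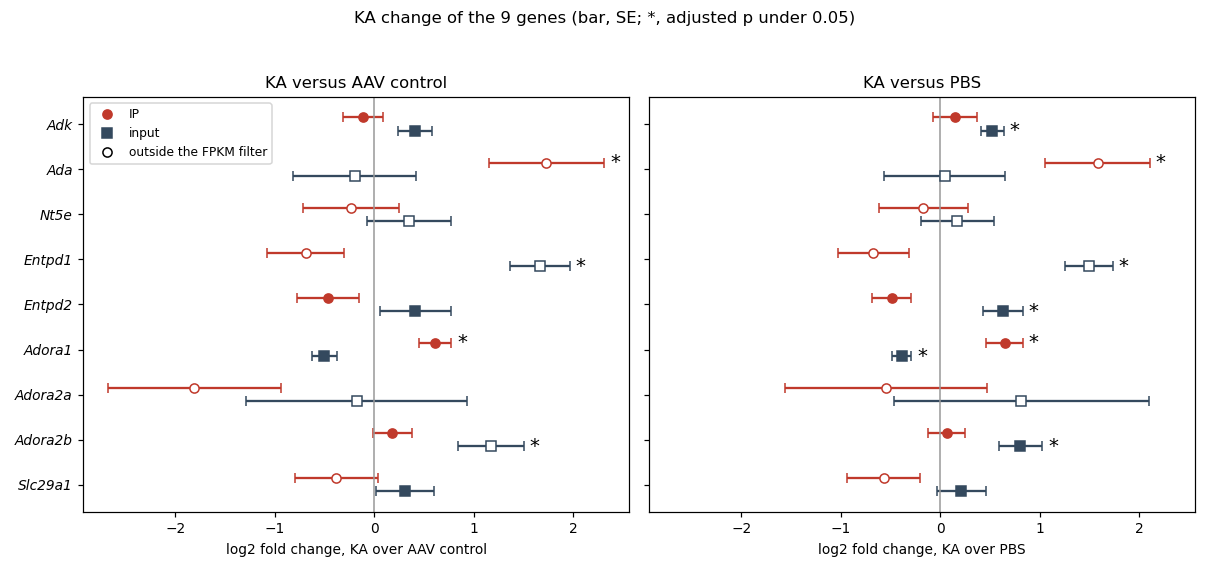
Log2 fold change of KA over AAV control (left) and over PBS (right) for the 9 genes (y axis), with the SE as a bar, IP as circles and input as squares. Open symbols are genes outside the FPKM filter, from the unfiltered fit, and asterisks mark an adjusted p under 0.05; Adora1 is to the right of 0 in IP and to the left in input.

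Counted over the list, 0 of 4 members passed in input against AAV control, where 4.49% of genes passed. Of these 4, 2 had an unadjusted p under 0.05, and 1 passed in DESeq2 and 0 in limma-voom. Without AAV control #3, Adk and Entpd2 passed as higher and Adora1 as lower, beside 23.8% of genes. Against PBS in input 4 of 5 members passed, Adk, Entpd2 and Adora2b higher and Adora1 lower, where 27.7% of genes passed. Their median log2 fold change of 0.52 compares with 0.01 over all genes tested. The choroid plexus markers summed to 2486 to 4479 FPKM in KA input, to 2980, 2114 and 16.03 FPKM in AAV control input and to 18.5 to 290 FPKM in PBS input, with AAV control #3 below all PBS samples. Their part in the input values was not tested. Without the filter, 2 of 9 members passed in input against AAV control (Entpd1 and Adora2b), beside 5.65% of genes, and 4 of 9 against PBS (Adk, Entpd1 and Adora2b higher and Adora1 lower), beside 15.8%.

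Between the PBS and AAV control groups, 0 of 4 members passed in IP and 0 of 4 in input by edgeR, DESeq2 or limma-voom, and 0 had an unadjusted p under 0.05. In both, 0.0% of all genes passed, although 1153 genes in IP and 901 in input had an unadjusted p under 0.05, and in DESeq2 16 and 30 passed. Without AAV control #3, 10.2% of genes passed in IP and 36.5% in input. Adk changed by -0.27 ± 0.25 in IP and -0.09 ± 0.14 in input between these groups, and Adora1 by -0.05 ± 0.19 and -0.10 ± 0.11.

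The ratio of IP to input within one homogenate compares the pulldown with the entire hippocampus, and depends on the cells in both. Summed oligodendrocyte markers had ratios of 2.64, 2.20 and 1.78 in KA. Their ratios were 0.32, 0.43 and 1.16 in AAV control and 0.55, 0.40 and 1.03 in PBS. A ratio above 1 in KA was therefore not particular to astrocyte markers. In AAV control, Adk had ratios of FPKM of 4.13, 3.81 and 3.85, Entpd2 of 6.42, 5.93 and 5.29 and Adora2b of 15.0, 7.73 and 6.18. In PBS, they were 3.97, 3.51 and 2.86 for Adk, 8.50, 6.51 and 4.86 for Entpd2 and 7.35, 4.83 and 7.10 for Adora2b. In KA, they were 2.61, 2.87 and 2.47 for Adk, 2.92, 2.81 and 3.16 for Entpd2 and 4.58, 3.00 and 3.86 for Adora2b. By FPKM, every KA ratio of Entpd2 and Adora2b was below every control ratio, and for Adk KA #2 just exceeded PBS #3. Slc29a1, on the other side of 1, had ratios of 0.40, 0.42 and 0.26 in KA, 0.56, 0.87 and 0.51 in AAV control and 0.66, 0.68 and 0.74 in PBS, with every KA ratio the lower. The summed astrocyte markers were also less enriched in KA, with ratios of 4.44, 4.77 and 5.57. Their ratios were 11.8, 12.01 and 10.8 in AAV control and 11.1, 12.7 and 7.75 in PBS. Their part in the ratios of the members was not tested. All of these ratios are of FPKM, and those of Adk depended on the scaling. With counts scaled by TMM, the mean Adk ratio was 3.29 ± 0.18 (SD, n = 3) in KA. It was 4.42 ± 0.53 in AAV control and 3.59 ± 0.93 in PBS. By FPKM these means were 2.65 ± 0.20, 3.93 ± 0.17 and 3.45 ± 0.56. The Adk mean in KA thus lay closer to that in PBS with TMM. For Entpd2 and Adora2b the mean stayed lowest in KA.

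Fitted on the counts, the IP to input difference of Adk was 2.13 ± 0.21 (log2) in AAV control, 1.93 ± 0.20 in PBS and 1.62 ± 0.16 in KA, with adjusted p of 0.00023, 8.28e-06 and 0.000235. That of Entpd2 was 2.65 ± 0.47, 2.84 ± 0.22 and 1.78 ± 0.15, and that of Adora2b was 2.80 ± 0.21 in PBS and 2.12 ± 0.16 in KA, all of which passed. In AAV control, Adora2b was outside the filter and reached 3.14 ± 0.33 in the unfiltered fit. Adora1 was the reverse, with ratios of 0.51, 0.52 and 0.45 in AAV control, 0.61, 0.40 and 0.53 in PBS and 1.15, 1.18 and 0.79 in KA. Every KA ratio was above every control ratio. Its fitted difference was -0.87 ± 0.14 in AAV control (adjusted p = 0.00241) and -0.84 ± 0.16 in PBS (adjusted p = 0.000958). The AAV control call was lost without #1 (-0.91, adjusted p = 0.0825) or #2 (-0.87, adjusted p = 0.0869). In KA the difference was 0.26 ± 0.14 and did not pass (adjusted p = 0.182), but it did without KA #3 (0.43, adjusted p = 0.00217).

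**Figure D3:**
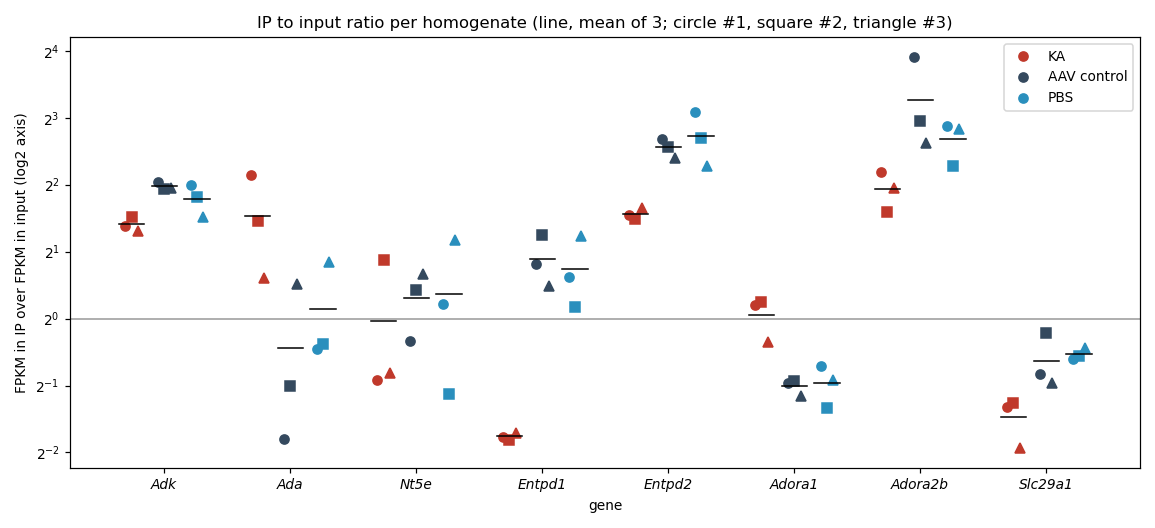
FPKM in IP over FPKM in input of the same homogenate (y axis, log2-spaced) for 8 genes (x axis), with 3 homogenates per group as symbols and their mean as a line; Adora2a is left out because of its counts of 0. The KA ratios of Entpd1, Entpd2, Adora2b and Slc29a1 lie below, and those of Adora1 above, all control ratios.

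Between IP and input, 3 of 3 members tested passed in AAV control (Adk and Entpd2 higher in IP, Adora1 lower), where 39.7% of genes passed. In PBS 4 of 4 passed (Adk, Entpd2 and Adora2b higher, Adora1 lower), beside 56.3% of genes, and in KA 3 of 4 passed (Adk, Entpd2 and Adora2b higher), beside 34.4%. Without the filter, 6 of 9 passed in KA, beside 18.3%, with Ada higher in IP by 1.62 ± 0.49 (adjusted p = 0.00736), Entpd1 lower by -1.45 ± 0.28 (adjusted p = 3.87e-06) and Slc29a1 lower by -1.22 ± 0.29 (adjusted p = 0.000385). The Entpd1 ratio was 0.29, 0.29 and 0.31 in KA, 1.76, 2.37 and 1.41 in AAV control and 1.55, 1.13 and 2.35 in PBS. The fits of IP against input given here did not use the shared homogenate as a block. With that block and the filter, no member gained or lost a call. The shares of all genes that passed were then 61.3% in AAV control, 61.1% in PBS and 52.8% in KA.

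The KA effects in IP and in input were also compared with each other, first without the homogenate as a block. Against AAV control, Adora1 had a KA effect greater in IP than in input by 1.14 ± 0.18 on the log2 scale (95% interval 0.74 to 1.53, adjusted p = 0.00196), and was the 1 of 4 members that passed, beside 13.3% of genes. Against PBS, the difference for Adora1 was 1.04 ± 0.21 (0.60 to 1.48, adjusted p = 0.00299). Entpd2 passed in the opposite direction against PBS (-1.11 ± 0.26, adjusted p = 0.00781), as did Adora2b (-0.74 ± 0.26, adjusted p = 0.0474), so that 3 of 4 members passed, beside 25.0% of genes. Entpd2 lost this call without the FPKM filter (-0.87, adjusted p = 0.0596). The Adora2b call was lost without any one of the 6 homogenates (-0.85 to -0.56, adjusted p of 0.077 to 0.221).

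IP and input with one number come from one homogenate, and with the homogenate as a replicate block all 4 members passed against AAV control, where the share of all genes that passed was 36.0%, beside 13.3% without the block. The blocked differences were -0.49 ± 0.12 for Adk (adjusted p = 0.00813), -0.89 ± 0.20 for Entpd2 (adjusted p = 0.00481), -1.04 ± 0.30 for Adora2b (adjusted p = 0.0189) and 1.14 ± 0.15 for Adora1 (adjusted p = 0.00019). Without the block the first 3 were -0.49 ± 0.25 (adjusted p = 0.241), -0.86 ± 0.51 (adjusted p = 0.312) and -1.01 ± 0.41 (adjusted p = 0.134). Without AAV control #3 and without the block, Entpd2 was at -0.95 (adjusted p = 0.0168) and Adora2b at -1.32 (adjusted p = 0.0128). Against PBS, Adk did not pass with the block (-0.34 ± 0.17, adjusted p = 0.138) or without it (-0.37 ± 0.26, adjusted p = 0.313). In the unfiltered fit Entpd1 had the largest difference of the 9 genes among those that passed, -2.36 ± 0.49 against AAV control (adjusted p = 0.000105) and -2.13 ± 0.43 against PBS (adjusted p = 3.7e-05), where 5.16% and 8.84% of genes passed. With the PBS baseline the median of all genes in that fit lay at -0.57.

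**Figure D4:**
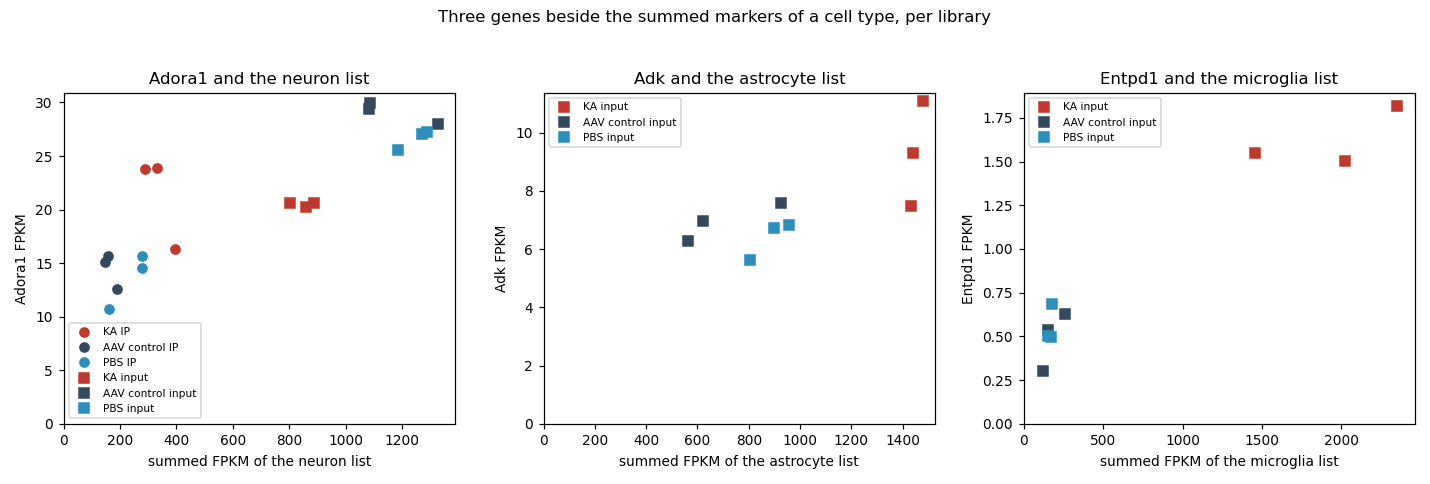
FPKM of Adora1, Adk and Entpd1 (y axes) against the summed FPKM of the neuronal, astrocyte and microglial markers (x axes), one symbol per library, IP as circles and input as squares. KA input libraries are at the lower left of the control inputs for Adora1 and at the upper right for Entpd1.

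Other genes of purine handling were counted by lists. Of 28 genes of the intracellular purine and methylation cycle, 22 were tested in IP against AAV control, and 4 passed higher and 4 lower, beside 20.1% of all genes, with a median of -0.06 beside -0.02 over all genes. Hprt, which salvages hypoxanthine, was at 102 ± 9.85 FPKM (SD, n = 3) in KA IP and 29.1 ± 5.52 in AAV control IP (log2 fold change 1.87, adjusted p = 0.000497). Mat2b, the regulatory subunit of methionine adenosyltransferase, was higher by 2.05 on the log2 scale (adjusted p = 0.000922), and Gda, guanine deaminase, by 0.86 (adjusted p = 0.0121), though Gda did not pass against PBS IP (0.36, adjusted p = 0.252). Lower were Ahcyl1, a relative of S-adenosylhomocysteine hydrolase (25.6 ± 1.31 against 96.3 ± 21.8 FPKM, log2 fold change -1.84, adjusted p = 0.00124), the adenylate kinase Ak4 (-1.69, adjusted p = 0.0187) and Ahcyl2 (-0.68, adjusted p = 0.022).

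Of 8 genes linked to ATP release, 4 were tested in IP, and the astrocyte connexins Gja1 (29.0 ± 5.03 FPKM in KA, 80.9 ± 15.9 in AAV control, log2 fold change -1.42, adjusted p = 0.00325) and Gjb6 (55.8 ± 16.9 against 115 ± 22.6 FPKM, adjusted p = 0.0205) were lower, 2 of 4 beside 20.1% of all genes. Against PBS, Gja1 and Panx2 were the 2 of 4 that passed, both lower, beside 37.0% of all genes, and Gjb6 did not pass (-0.36, adjusted p = 0.259). None of 3 other ecto-enzymes, 2 other nucleoside transporters and 3 purinergic P2 receptors tested passed in IP against AAV control. Against PBS in IP, 1 of 3 ecto-enzymes passed as higher and 0 of 2 transporters passed, beside 37.0% of all genes. Of 2 P2 receptors tested there, P2ry12 passed as lower, with means of 1.38 FPKM in KA and 2.34 in PBS. In input against AAV control the P2 receptors tested were not the same set, and 2 of 3 passed, beside 4.49% of all genes. They were P2ry12 (9.52 ± 0.91 against 4.53 ± 0.90 FPKM, adjusted p = 0.0357) and P2ry13 (adjusted p = 0.0354). Both are known from microglia, and both were named after their values were seen. In IP, P2ry13 was outside the filter, with means of 0.57 FPKM in KA and 0.30 in AAV control.

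Over the 18 libraries, the genes whose log2 CPM was most like that of Adk were Etfa (Pearson's r = 0.991), Suox, Fkbp9, Laptm4a and Hspb8, of 13275 genes with a mean FPKM above 1. Those most like Entpd2 were Acsbg1 (r = 0.991), Idh2 and Ckb, and those most like Adora1 were Fxyd7 (r = 0.938), Tex2 and Chpf. Fxyd7 was at 87.1 ± 22.3 FPKM in KA IP, 30.8 ± 2.61 in AAV control IP, 91.0 ± 7.33 in KA input and 137 ± 16.7 in AAV control input. These correlations describe points that share homogenates and runs and that fall into IP and input libraries.

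By level per length, the order in AAV control IP was Adk, Adora1, Entpd2 and Adora2b, with means of 27.3, 14.5, 12.8 and 11.4 FPKM, followed by the other 5 genes with means below 1 FPKM. The libraries of the last 3 of these 4 overlapped, and those of Adk were separate. In KA IP, Adk (24.7 ± 5.46 FPKM) and Adora1 (21.3 ± 4.39) overlapped, and Adora2b (12.5 ± 1.002) and Entpd2 (9.12 ± 0.51) followed, each separate from the next. Ada averaged 1.03 ± 0.18 FPKM there, above Slc29a1, Entpd1, Nt5e and Adora2a, each of which was separate from the next in this group.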

How the data were processed

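The authors aligned reads to mm10, and the submitters' processing notes list STAR, featureCounts and edgeR without versions or roles. They deposited, for each of 18 libraries, counts per gene symbol and FPKM values per gene symbol. The annotation, strand setting and treatment of multiply mapped reads are not given in the sources used here. Totals of 7991681 to 16032180 counts limit precision for genes with few counts, and intervals cover the spread between pools.

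The counts were tested in R 4.3.3 by the quasi-likelihood test of edgeR 4.0.16, after TMM normalization and with p-values adjusted over all tested genes (Benjamini-Hochberg), with FPKM above 1 required in all compared libraries and, for the difference of KA effects, in the 6 IP libraries. SEs were the fold change over the square root of F. Members outside the filter were compared by exact permutation of log2(FPKM + 1). The unfiltered fit shifted the median log2 fold change of all genes to -0.56 for KA versus PBS in IP, to 0.59 for IP versus input in PBS, to 0.32 for PBS versus AAV control in IP and to -0.57 for the difference of KA effects with the PBS baseline. DESeq2 1.42.0, limma 3.58.1, other filters, size factors, blocks and left-out libraries were tried as alternatives. The fit was tested on simulated data. Replicate pairs differed by 6.04 to 181 times counting noise, so no library was counted as a duplicate.

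Same-numbered residuals of KA and AAV control libraries correlated at 0.348 to 0.551 in IP and 0.352 to 0.550 in input. In both groups, samples #1 and #2 were in run 1 and samples #3 in run 2. These correlations therefore cannot tell a pairing by number from the shared run. The replicate number was used as a block only as an alternative. Same-numbered residuals of KA and PBS correlated at -0.294 to 0.106 in IP and -0.062 to 0.065 in input. Those of PBS and AAV control correlated at -0.232 to 0.354 and -0.124 to 0.083. All PBS samples were in run 3 and shared no run with the other groups. These correlations cannot tell whether PBS samples pair with them by number. IP and input pair by homogenate (0.155 to 0.752).

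The genes named are all 9 members, up to 3 genes per direction with the smallest p in KA versus AAV control IP from each pathway list, and those most like Adk (5), Entpd2 (3) and Adora1 (3). Members, lists and markers were chosen with earlier results of these data known. Of the symbols, 96.4% matched GENCODE on GRCm38.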

Additional observations from a re-analysis of the deposited data

Results flagged for a closer look

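When the KA effects in IP and in input were tested against each other, 1 of 4 members passed with the AAV control baseline and 3 of 4 with the PBS baseline, beside 13.3% and 25.0% of all genes. Adora1 differed by 1.14 on the log2 scale with the AAV control baseline and by 1.04 with the PBS baseline, both greater in IP. Entpd2 differed by -1.11 and Adora2b by -0.74 with the PBS baseline, both lower in IP relative to input. Entpd1, in the fit without the FPKM filter, differed by -2.36 with the AAV control baseline and by -2.13 with the PBS baseline. In that fit 2 of 9 members, Adora1 and Entpd1, passed with each baseline, beside 5.16% and 8.84% of all genes, and Entpd2 and Adora2b did not. None of these fits used the homogenate as a block. With the block and the FPKM filter, all 4 members passed with the AAV control baseline, beside 36.0% of all genes. With the PBS baseline, the block changed no call of a member, beside 37.6% of all genes. Groups of 3 samples were not screened for single outlying libraries.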

How the results depend on the processing

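The counts of members that passed depended on the filter and on single libraries. Without the FPKM filter, 2 members passed in IP against AAV control and 2 against PBS (1 each with the filter), 2 in input against AAV control (0 with it), 6 between IP and input in KA (3 with it) and 2 for the difference of KA effects with the AAV control baseline (1 with it). With the filterByExpr filter, these were 2 in IP against PBS, 1 in input against AAV control, 6 in KA and 2 for the difference. The shares of all genes that passed with that filter were 40.4%, 7.2%, 32.7% and 8.27%. In input against AAV control, 1 member passed in DESeq2, 1 with the replicate block, 1 with the sequencing run as covariate, 1 in one fit over 9 libraries and 3 in run 1 alone, which was chosen after seeing the data. The shares of all genes that passed there were 8.12%, 10.2%, 16%, 8.77% and 41.6%, beside 4.49% in the reported fit. In input against PBS, 2 passed in one fit over 9 libraries, beside 15.6% of all genes. For the difference of KA effects with the AAV control baseline, 4 passed with the replicate block and 2 with the run as covariate, beside 36.0% and 29.0% of all genes.

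With one library or homogenate left out, the counts ranged from 0 to 1 (KA versus AAV control, IP), 0 to 2 (KA versus PBS, IP), 0 to 3 (KA versus AAV control, input), 1 to 4 (KA versus PBS, input), 2 to 3, 4 to 4 and 3 to 4 (IP versus input in AAV control, PBS and KA), and 1 to 3 and 2 to 2 (difference of KA effects, AAV control and PBS baselines), and stayed at 0 for PBS versus AAV control. The shares of all genes that passed moved too. For KA versus AAV control they were 8.59% to 33.8% in IP and 1.23% to 23.8% in input. For KA versus PBS they were 25% to 36.7% and 15.6% to 43.9%. For IP versus input they were 16.1% to 62.7% (AAV control), 40.8% to 49.8% (PBS) and 13.2% to 47.9% (KA). For the difference of KA effects they were 5.15% to 22% and 13.8% to 22.3%. No called member changed sign. Of 540 alternative fold changes of single members, 485 kept their direction or stayed uncalled, 37 lost and 18 gained a call. Besides the calls named with the results, Entpd2 in input against PBS lost its call without the filter, with filterByExpr, in DESeq2 and in one fit over 9 libraries, and the difference of KA effects on Adora2b with the PBS baseline lost it with RLE size factors, both other filters, DESeq2 and limma-voom. The difference for Entpd2 with the PBS baseline lost its call without the filter (-0.87, adjusted p = 0.0596). The cause was not tested. The replicate block changed no other call. Depth limits Ada, Nt5e and Adora2a, which had at most 51 counts in a library.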
